A study of Mus musculus with 20 samples.

Results

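The genes described here are 31 mouse orthologs of genes in which variants are linked to amyotrophic lateral sclerosis (ALS) or to ALS with frontotemporal dementia in people. The members were given as a fixed list, with 3110043O21Rik standing for the ortholog of C9orf72. All 31 were found among the 24421 gene symbols in the count files, and all 31 were among the 14792 genes that passed the filter on low counts. They were followed in motor neurons derived from mouse stem cells of embryonic origin, in NIP cultures (labelled a cranial type) and NIL cultures (labelled a spinal type). In this field the names stand for Neurog2 and Isl1 together with Phox2a in NIP and with Lhx3 in NIL. From day 2 the cultures were exposed to 20 µM cyclopiazonic acid (CPA), an inhibitor of the pump that loads calcium into the endoplasmic reticulum (ER), which brings on ER stress. Each line had 5 groups of 2 libraries: untreated at 0 h, 12 h and 36 h, and CPA at 12 h and 36 h. The sample titles give these times, whereas the treatment text names 6 h and 12 h as the later ones, and the titles were followed. All groups share the stem cell origin and a serum-containing Neurobasal medium, and none is described as carrying a variant in an ALS gene.

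ALS is a disease in which motor neurons are lost. The genes linked to it fall into a few working groups: RNA-binding proteins that move between nucleus and cytoplasm and enter stress granules, proteins of autophagy, the ubiquitin system and the endolysosome, parts of the cytoskeleton and of axonal transport, and a set with other roles in mitochondria, synapses or signalling. Several touch the ER directly. VCP pulls misfolded proteins out of the ER membrane for degradation, VAPB anchors contacts between the ER and other membranes, and SQSTM1 (p62) links ubiquitinated cargo to the autophagosome.

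Promoters were read first, since 3 of the motifs searched belong to the ER stress response. Windows of 300 bases (250 before to 50 after the annotated start) were found for 26 of the 31 genes in the RefSeq table of build GRCm38.p6, 30 windows in all. None was found for 3110043O21Rik, Ubqln2, Matr3, Kif5a and Nek1. The 8-letter element TGATGCAA, the composite of ATF4 and C/EBP factors, was present in the Chchd10 window alone, 1 of the 30 member windows, and in 0.895% of all 32851 windows. The element UPRE (TGACGTGG), named for the unfolded protein response, was present in the Vcp window alone among the members and in 0.676% of all windows. It overlaps there with the antioxidant response element (TGACNNNGC), which Sod1 and Unc13a also hold and which 12.4% of all windows hold. ERSE, the ER stress element (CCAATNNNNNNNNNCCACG), was in no member's window and in 0.119% of all windows, and the lysosomal gene element (CLEAR core, GTCACGTG) was in that of Tbk1 and in 2.25% of all windows. Both strands were searched. The windows printed are those of the gene with the largest CPA difference among the members (Chchd10), a member higher both with CPA and in NIP (Sqstm1, with no match to these motifs) and the member with the UPRE match (Vcp). Motif letters are in capitals.
Chchd10, chr10:75932880-75933179, plus strand: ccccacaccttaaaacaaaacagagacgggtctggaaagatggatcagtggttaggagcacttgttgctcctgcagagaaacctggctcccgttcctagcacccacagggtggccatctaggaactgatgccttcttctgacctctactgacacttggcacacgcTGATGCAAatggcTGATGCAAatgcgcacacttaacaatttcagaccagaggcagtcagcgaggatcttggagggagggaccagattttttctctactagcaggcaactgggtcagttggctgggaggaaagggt
Sqstm1, chr11:50210771-50211070, minus strand: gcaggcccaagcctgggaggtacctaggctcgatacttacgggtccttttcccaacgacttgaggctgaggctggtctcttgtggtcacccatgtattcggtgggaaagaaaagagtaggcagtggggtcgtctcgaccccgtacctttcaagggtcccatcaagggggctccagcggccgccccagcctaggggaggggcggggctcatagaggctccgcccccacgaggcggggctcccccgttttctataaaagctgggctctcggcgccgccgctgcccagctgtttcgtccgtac
Vcp, chr4:43000458-43000757, minus strand: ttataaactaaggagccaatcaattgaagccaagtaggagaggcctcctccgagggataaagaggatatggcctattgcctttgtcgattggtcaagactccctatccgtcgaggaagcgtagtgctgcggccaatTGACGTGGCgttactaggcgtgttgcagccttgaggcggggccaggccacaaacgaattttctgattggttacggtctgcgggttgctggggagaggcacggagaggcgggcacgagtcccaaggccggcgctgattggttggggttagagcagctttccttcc
In the Chchd10 window TGATGCAA stands as a pair of copies, at positions -85 to -78 and -72 to -65 from the start. In the Vcp window UPRE lies at -114 to -107 and the antioxidant element at -114 to -106. A match describes letters only and is not a binding site.

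Gene reads per library ranged from 7996454 to 30321152. The line labels held: relative to NIL, untreated NIP averaged over times was lower in Lhx3 and Mnx1 (log2 difference -8.11 ± 0.24 for Mnx1) and higher in Phox2a (7.71 ± 0.68). CPA raised the ER stress genes Hspa5 (log2 difference 2.66 ± 0.14, averaged over lines and times) and Ddit3 (3.86 ± 0.24). The cultures were not purely neuronal. The summed level of 10 endoderm and endothelium markers ranged from 336 to 25912 CPM, the read count scaled to a common library size, and that of 14 proliferation markers from 39.6 to 777 CPM, while 6 microglia markers summed to at most 1.69 CPM. Libraries with replicate number 2 were higher than those with number 1 in 14 of 14 proliferation markers and 9 of 9 stem cell markers, and 49.2% of all genes differed between these replicate sets. Among the 31 ALS-linked genes 5 were higher and 10 lower in set 2, led by Chchd10 (log2 difference 1.34 ± 0.31), Ccnf (1.17 ± 0.13), Anxa11 (0.93 ± 0.19) and Matr3 (-0.64 ± 0.09). A pair of libraries held an unusual share of reads at Rn45s, the ribosomal RNA precursor: CPA-treated NIL 36 h replicate 2 (38.3%) and untreated NIP 36 h replicate 1 (38.6%). Counts of called members at 36 h and averaged over times, and calls at 36 h made with the replicate number as a term, are given with and without both. For fits without both, the share of all genes called is given only where the replicate number is a term. Fits with 1 library left out do not use the replicate number as a term. Whether replicates were grown as separate cultures is not stated, so the spread behind each p-value is that between these libraries and may be technical. A gene is called where its adjusted p is under 0.05 in the test across all genes, and "with the block" means the same test with the replicate number as a term.

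Per kilobase of exon, the members spanned a wide range of levels. The length used counts every base in any annotated exon of a gene and can exceed that of its main transcript. The order of members is therefore approximate. Kif5a, the motor of neuronal kinesin-1, had the highest median over the 20 libraries at 162 CPM per kilobase, followed by Vcp (118), Pfn1 (94.1), Sqstm1 (88.3) and Ubqln2 (70.1). At the other end were Erbb4 (0.0741), Anxa11 (1.71), Ccnf (3.12) and Tuba4a (3.48). Hnrnpa1 stood at 4.32 CPM per kilobase, against 41.4 for its relative Hnrnpa2b1. The submitters' counting tool leaves out reads that map to several places, and Hnrnpa1 has processed copies elsewhere in the genome, so its level here is uncertain.

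CPA was followed by calls in both directions, within the list and over all genes alike. The share of the list called was not tested against that of all genes. Averaged over lines and times, 9 of 31 members were called (29.0% of the list), 4 higher and 5 lower, against 21.1% of all genes tested (9.84% higher, 11.3% lower). The autophagy receptors Sqstm1 and Optn, the mitochondrial protein gene Chchd10 and the glycosyltransferase gene Glt8d1 rose. The dynactin subunit gene Dctn1, the ER contact gene Vapb and the RNA-binding protein genes Hnrnpa1, Hnrnpa2b1 and Ewsr1 fell. With the block 17 of 31 were called (54.8%), 7 higher and 10 lower, against 38.9% of all genes. Without both high-Rn45s libraries 12 were called with the block, 4 higher and 8 lower, against 29.9% of all genes. The median log2 difference over the 31 was near 0 (-0.0044), as it was over all genes tested (0.0016).

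**Figure D1:**
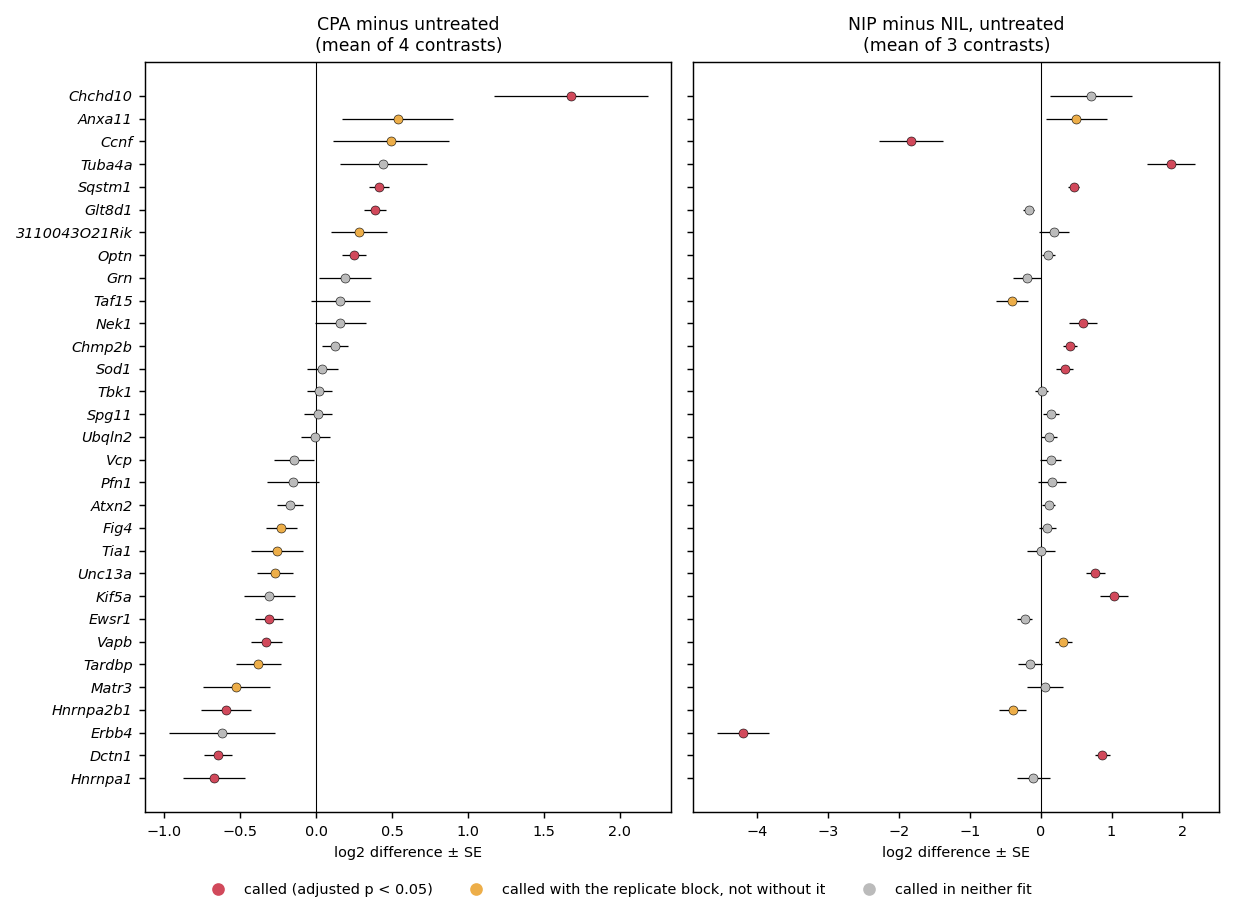
Log2 difference ± SE for each of the 31 ALS-linked genes, CPA minus untreated averaged over 4 contrasts (left) and NIP minus NIL averaged over 3 untreated times (right). Colours mark genes called in the fit without the replicate block, only with it, or in neither. Chchd10 has the largest positive CPA difference (1.68) and Erbb4 the largest line difference (-4.20).

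The summed level of 14 motor neuron markers was also lower with CPA, from 2168 to 6472 CPM in the 8 treated libraries against 5134 to 10110 CPM in the 8 untreated libraries at 12 h and 36 h, and 5 of the 14 were called lower. In bulk RNA, fewer cells of a type and less RNA per cell cannot be told apart, and the part of cell makeup in the members' differences was not tested. Endoderm and endothelium markers gave 0 of 10 called with CPA, with or without the block, but all 10 log2 differences were above 0 (median 0.58). Their sums were 336 to 25912 CPM in CPA libraries against 521 to 14832 CPM untreated, higher with CPA in 6 of 8 matched pairs. The widest gaps in CPM were in NIL at 36 h, at 11996 and 25912 CPM with CPA against 4135 and 14832 CPM untreated. Proliferation markers gave 0 of 14 called and 2 called higher with the block, and all 14 log2 differences were above 0 (median 0.17). Their sums overlapped (39.6 to 777 CPM with CPA, 45.8 to 732 CPM untreated), were higher with CPA in 5 of 8 pairs, and in NIL at 36 h stood at 492.8 and 777.2 CPM with CPA against 238 and 702.5 CPM untreated. Stem cell marker sums were higher with CPA in 7 of 8 pairs (10.4 to 311.5 CPM with CPA, 7.51 to 234.9 CPM untreated). Astrocyte marker sums were lower in 8 of 8 pairs and microglia marker sums in 7 of 8. Those were low, at most 15.49 and 1.147 CPM in the untreated libraries. Mesenchyme markers were higher in 4 of 8 pairs and oligodendrocyte markers in 5 of 8. The part of these lists in the members' differences was not tested.

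**Figure D2:**
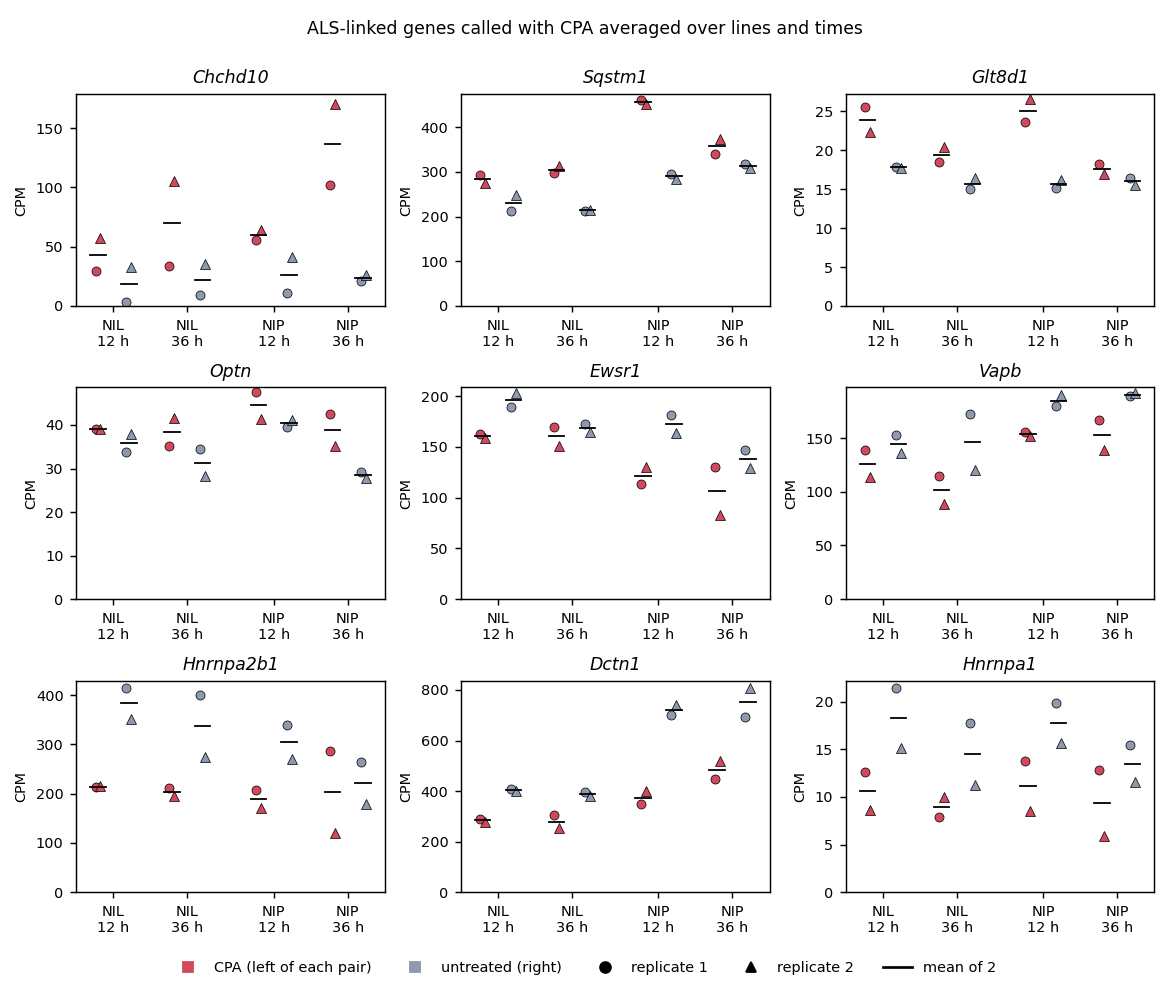
CPM in each library for the 9 ALS-linked genes called with CPA averaged over lines and times, with CPA libraries left of untreated libraries in each pair. Points are libraries, shapes mark the replicate number and bars are means of 2. Dctn1 lies lower with CPA in all 4 pairs and Sqstm1 higher.

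Sqstm1, the p62 receptor that gathers ubiquitinated proteins, had 276 to 462 CPM in the 8 CPA libraries (median 327) and 213 to 317 CPM in the 8 untreated libraries (median 266). CPA libraries were higher in 8 of 8 matched pairs, although the pooled ranges overlap. NIP libraries were higher than NIL libraries in the untreated groups. The averaged log2 difference was 0.42 ± 0.07 (1.33-fold, adjusted p = 0.000716). The widest gap was in NIP at 12 h, with 461.6 and 452.5 CPM in the CPA libraries against 295.6 and 285.3 CPM in the untreated ones (0.65 ± 0.13, adjusted p = 0.0132). In NIL at 36 h the CPA libraries held 297.1 and 312.6 CPM and the untreated ones 213.2 and 214.6 CPM, a log2 difference of 0.51 ± 0.13 that was called only with the block (adjusted p = 0.0802 without it, 0.0154 with it, and 0.111 with it but without both high-Rn45s libraries). An antisense gene, 3010026O09Rik (Mrnip), overlaps 17.3% of the exon bases of Sqstm1, and the strand setting of the counts is not given. That gene had 9.82 to 15.9 CPM with CPA and 8.59 to 15.8 CPM untreated, far below Sqstm1, and was not called with CPA (-0.05 ± 0.11).

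Optn encodes optineurin, another autophagy receptor, which the kinase TBK1 phosphorylates. Its levels were 35.1 to 47.7 CPM with CPA (median 40.3) and 27.9 to 41.3 CPM untreated (median 34.2). The averaged difference of 0.25 ± 0.08 (1.19-fold, adjusted p = 0.0334) was small, positive in 8 of 8 pairs and called in no single line and time. Tbk1 itself had a log2 difference of 0.02 ± 0.08 and Ubqln2, a shuttle for ubiquitinated proteins, one of -0.00 ± 0.09. Neither was called at any time in either line, and their group means spanned 26.3 to 30.7 CPM and 214 to 282 CPM. Of 14 other autophagy receptors, ATG8 proteins and TBK1 adaptors, 0 rose and 2 fell with CPA: Gabarapl2 (-0.40 ± 0.08), an ATG8 protein, and Calcoco1 (-0.27 ± 0.08). That is 14.3% called, against 21.1% of all genes.

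Vcp was not called with CPA. It held 359 to 654 CPM in the CPA libraries and 439 to 745 CPM in the untreated ones, with a log2 difference of -0.14 ± 0.13 (adjusted p = 0.476). Of 20 tested VCP cofactors 3 rose and 0 fell (15% called, against 21.1% of all genes, and 9.84% of all genes higher), among them Derl1 (0.88 ± 0.07), the channel-like derlin of ER-associated degradation, and Vimp (1.31 ± 0.12), which recruits VCP to the ER. In NIP at 12 h Vimp stood at 89.3 ± 5.3 CPM with CPA against 28.5 ± 3.2 CPM untreated (SD, n = 2 each). In NIL at 12 h it stood at 79.3 ± 1.2 CPM with CPA against 27.4 ± 8.1 CPM untreated.

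Vapb was lower with CPA in 8 of 8 pairs, at 88.7 to 167 CPM in CPA libraries (median 139) and 121 to 192 CPM in untreated libraries (median 176). Its averaged difference was -0.33 ± 0.10 (0.797-fold, adjusted p = 0.0381), and at 36 h in NIL it was called with the block (-0.52 ± 0.17, adjusted p = 0.043, against 0.219 without it and 0.322 with it but without both high-Rn45s libraries). Of the endolysosomal members, Fig4, a regulator of the lipid PI(3,5)P2, was lower with the block only (-0.23 ± 0.08, adjusted p = 0.0368, 0.137 without it). Spg11 (spatacsin, lysosome reformation) had a difference of 0.01 ± 0.09 and group means of 47.7 to 60.1 CPM. Eif3j1 overlaps 13.8% of the exon bases of Spg11 on the opposite strand. In NIL at 36 h Grn, encoding progranulin, and Chmp2b, an ESCRT-III subunit, were called higher only with the block. Grn held 127.3 and 163.4 CPM with CPA and 66.95 and 107.9 CPM untreated (0.76 ± 0.17 with the block, adjusted p = 0.00685, 0.295 without it). Chmp2b held 28.3 and 29.27 CPM with CPA and 20.77 and 17.71 CPM untreated (0.58 ± 0.17, adjusted p = 0.0268, 0.132 without it). The second CPA library there is the one with a high Rn45s share. Without both high-Rn45s libraries the block fit gave 0.87 ± 0.21 for Grn (adjusted p = 0.038) and an adjusted p of 0.163 for Chmp2b. In the same libraries the endoderm and endothelium markers summed to 11996 and 25912 CPM with CPA against 4135 and 14832 CPM untreated, and the proliferation markers were also higher in both pairs, as given above. Their part in the differences of Grn and Chmp2b was not tested. Over all 8 CPA pairs Grn was higher in 3 and lower in 5, and Chmp2b was higher in 5 and lower in 3. Neither was called averaged over lines and times, with or without the block.

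3110043O21Rik, the C9orf72 ortholog, whose protein acts with SMCR8 and WDR41 in membrane traffic and autophagy, had log2 differences of both signs in the 4 CPA contrasts. In NIP at 12 h it held 146.3 and 100.8 CPM with CPA and 59.56 and 59.65 CPM untreated, a 2.07-fold difference (1.05 ± 0.37, adjusted p = 0.14; 1.01 ± 0.20 with the block, adjusted p = 0.00273). In NIL at 36 h it held 40.86 and 25.29 CPM with CPA and 63.73 and 35.12 CPM untreated (-0.58 ± 0.37, adjusted p = 0.434). The CPA libraries lie above the untreated ones in the first case, and the groups overlap in the second. In NIL at 12 h the gene held 62.15 and 45.08 CPM with CPA and 58.12 and 38.9 CPM untreated. In NIP at 36 h it held 91.4 and 54.82 CPM with CPA and 53.03 and 49.21 CPM untreated. Over all 8 pairs CPA libraries were higher in 6 and lower in 2, both of these in NIL at 36 h. The test of the difference in response between lines did not pass at 12 h or at 36 h. Averaged, it was called higher with the block only (0.26 ± 0.10, adjusted p = 0.0474, 0.301 without it). Of 14 partners of C9orf72, FIG4, spatacsin and progranulin, 1 rose with CPA (7.14% called, against 21.1% of all genes), Smcr8 (0.26 ± 0.09, adjusted p = 0.0464).

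Among the 8 members that encode RNA-binding proteins, 3 fell with CPA and 0 rose, and 3 more were called lower with the block. Of all genes tested, 11.3% were lower without the block. With the block 38.9% were called in both directions together, which is a wider measure than calls lower. The share of all genes lower with the block is not given, so no excess of lower calls among the 8 is read from that fit. Hnrnpa2b1, an mRNA transport and splicing factor, held 119 to 287 CPM in CPA libraries (median 209) and 179 to 415 CPM in untreated ones (median 307). The difference was -0.59 ± 0.17 (0.662-fold, adjusted p = 0.0213) and negative in 7 of 8 pairs, the exception being replicate 1 of NIP at 36 h (287.1 CPM with CPA, 263.1 CPM untreated). That untreated library is the one with a high Rn45s share. Hnrnpa1, its close relative, held 5.86 to 13.8 CPM with CPA and 11.3 to 21.4 CPM untreated (-0.67 ± 0.20, adjusted p = 0.0309), lower in 8 of 8 pairs. Ewsr1, of the FET family that includes Taf15, held 83.2 to 170 CPM with CPA and 130 to 203 CPM untreated (-0.31 ± 0.09, adjusted p = 0.0305), again lower in 8 of 8 pairs, by as little as -0.018 on the log2 scale in 1 of them.

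Tardbp, which encodes TDP-43, the protein found in cytoplasmic inclusions in most ALS cases, held 66.3 to 118 CPM with CPA (median 100) and 90.1 to 175 CPM untreated (median 133). It was called lower with the block (-0.38 ± 0.09, adjusted p = 0.00227, 0.0867 without it), and 7 of 8 pairs were lower. Matr3, a nuclear matrix RNA-binding protein, was lower in 8 of 8 pairs (-0.53 ± 0.10 with the block, adjusted p = 0.00052, 0.111 without it). Other annotated genes overlap 17.3% of the exon bases of Matr3, Gm28285 on the same strand and AC121821.3 on the opposite strand, so its level is uncertain. Tia1, a stress granule nucleator, was lower with the block (-0.26 ± 0.08, adjusted p = 0.0207, 0.317 without it), and Atxn2, a stress granule protein and modifier of ALS risk, was not called (-0.17 ± 0.09, adjusted p = 0.173), with group means of 117 to 155 CPM.

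Taf15, a relative of Ewsr1, was higher with CPA at 12 h. With the block it was called higher in NIL (0.66 ± 0.20, adjusted p = 0.049, 0.558 without it) and in NIP (0.72 ± 0.20, adjusted p = 0.0199, 0.401 without it), and averaged over all 4 contrasts it was not called (0.16 ± 0.19). At 12 h the libraries held 61.9 and 58.52 CPM with CPA against 41.49 and 32.8 CPM untreated in NIP, and 84.26 and 67.78 CPM with CPA against 60.36 and 37.97 CPM untreated in NIL. At 36 h its log2 differences were -0.18 ± 0.39 in NIP and -0.50 ± 0.39 in NIL, neither called. Of 21 other stress granule and related RNA-binding proteins 2 rose and 3 fell (23.8% called, against 21.1% of all genes). Atxn2l, the relative of Atxn2, rose by 0.62 ± 0.12, while G3bp2 (-0.56 ± 0.15), Ubap2l (-0.34 ± 0.07) and Hnrnpa0 (-0.33 ± 0.08) fell.

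Masp2 overlaps 23.3% of the exon bases of Tardbp on the opposite strand, and without the strand setting reads of such a pair cannot be told apart. Masp2 rose with CPA (1.83 ± 0.24), at 1.68 to 4.36 CPM with CPA against 0.464 to 0.951 CPM untreated, levels far below those of Tardbp.

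Among the members of axonal transport and the cytoskeleton, Dctn1 alone was called with CPA. It encodes p150Glued, the dynactin subunit that ties dynein to microtubules. In NIP at 12 h it had 346.9 and 401.7 CPM with CPA and 701.7 and 739.9 CPM untreated, a 0.519-fold level (-0.95 ± 0.18, adjusted p = 0.0106). In NIP at 36 h it had 448.4 and 518.3 CPM with CPA and 691.5 and 809.6 CPM untreated (-0.64 ± 0.18, adjusted p = 0.1; 0.0243 with the block, 0.0643 with it but without both high-Rn45s libraries). In NIL it had 291.3 and 276.1 CPM with CPA and 407.4 and 402 CPM untreated at 12 h (-0.51 ± 0.18, adjusted p = 0.201), and 304.1 and 253 CPM with CPA and 396.8 and 380.1 CPM untreated at 36 h (-0.48 ± 0.18, adjusted p = 0.206). In each of these 4 settings both CPA libraries lay under both untreated ones. The averaged difference was -0.64 ± 0.09 (0.64-fold, adjusted p = 0.000318), negative in 8 of 8 pairs. No gene overlaps the exons of Dctn1 in the annotation.

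Of 21 other dynein, dynactin and kinesin-1 genes, 7 fell and 1 rose with CPA (38.1% called, against 21.1% of all genes), and the median over the 21 was -0.31 on the log2 scale. With the block 13 fell and 1 rose, where 38.9% of all genes were called in both directions together. The dynein intermediate chain gene Dync1i1 fell by 1.49 ± 0.25, and the dynactin filament genes Actr1a (-0.44 ± 0.11) and Actr1b (-0.30 ± 0.06) and the dynein light chain gene Dynlrb1 (-0.36 ± 0.09) also fell. Kif5b, the widely expressed relative of Kif5a, rose by 0.31 ± 0.10. Kif5a itself was not called (-0.31 ± 0.17, adjusted p = 0.213). Motor neuron markers fell in the same libraries, as given above, and their part was not tested.

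Tuba4a, an alpha-tubulin linked to ALS, was not called with CPA (0.44 ± 0.29, adjusted p = 0.301), while the alpha-tubulin genes Tuba1a (-0.85 ± 0.13) and Tuba1b (-0.77 ± 0.08) fell. In NIP at 36 h Tuba4a held 47.27 and 39 CPM with CPA and 22.52 and 19.49 CPM untreated (1.04 ± 0.56, adjusted p = 0.47), 2 groups that do not overlap. Tubulin genes are close in sequence, and Stk16 overlaps 37.3% of the exon bases of Tuba4a on the other strand, so its level is uncertain. Pfn1, the actin regulator profilin 1, had a difference of -0.15 ± 0.17 and Nek1, a kinase of cilia and DNA repair, one of 0.16 ± 0.17.

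Chchd10 showed the largest difference of any member. The gene encodes a protein of the mitochondrial intermembrane space. It held 29.3 to 170 CPM in the 8 CPA libraries (median 60.4) and 3.74 to 41.5 CPM in the 8 untreated libraries (median 23.2). In NIP at 36 h the CPA libraries had 102.3 and 170.1 CPM and the untreated ones 20.61 and 25.78 CPM (5.85-fold, 2.55 ± 1.04, adjusted p = 0.285; 0.0437 with the block, 0.118 with it but without both high-Rn45s libraries). In NIL at 12 h the CPA libraries had 29.29 and 57.02 CPM and the untreated ones 3.737 and 32.51 CPM, groups that overlap across replicate sets although the CPA library was the higher one in each set. Over all 8 pairs the log2 ratio was positive, from 0.62 to 2.97, and the averaged difference was 1.68 ± 0.51 (3.19-fold, adjusted p = 0.0315). Its level also differs by replicate set, which widens the error without the block (1.86 ± 0.34, adjusted p = 0.00153 with it). Mmp11, which overlaps part of its exons on the other strand (11.4% together with Gm867), was higher with CPA too (0.47 ± 0.12) at 9.77 to 26.4 CPM with CPA against 9.01 to 18.2 CPM untreated. Of 18 close relatives of members 1 rose and 4 fell with CPA (27.8% called, against 21.1% of all genes), the fallen ones including the mitochondrial superoxide dismutase gene Sod2 (-0.38 ± 0.13).

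Glt8d1 encodes a Golgi glycosyltransferase. It had 16.9 to 26.6 CPM in CPA libraries (median 21.4) and 15 to 17.9 CPM in untreated ones (median 16.3), with CPA higher in 8 of 8 pairs. The averaged difference was 0.39 ± 0.07 (1.31-fold, adjusted p = 0.0018). In NIP at 12 h the CPA libraries held 23.56 and 26.59 CPM and the untreated ones 15.15 and 16.12 CPM (0.68 ± 0.14, adjusted p = 0.0143). At 36 h in NIP the values were 18.2 and 16.9 CPM with CPA and 16.44 and 15.55 CPM untreated, a log2 difference of 0.14 ± 0.14. The test of 36 h against 12 h in NIP gave -0.55 ± 0.20 (adjusted p = 0.651), so a difference between these times was not detected. Spcs1, a signal peptidase subunit on the opposite strand, overlaps 7.57% of its exon bases and was not called (0.25 ± 0.11, adjusted p = 0.115).

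Other members with separate roles were not called with CPA in the fit without the block. Sod1, the cytosolic superoxide dismutase, had a difference of 0.04 ± 0.10 with 125 to 214 CPM in CPA libraries and 123 to 206 CPM untreated. Unc13a, a synaptic vesicle priming factor, was lower with the block (-0.27 ± 0.10, adjusted p = 0.0403, 0.128 without it) and in NIP at 12 h held 155.2 and 134.6 CPM with CPA against 243.4 and 231.9 CPM untreated (-0.71 ± 0.24, adjusted p = 0.123; 0.0242 with the block). Erbb4, a neuregulin receptor, had -0.62 ± 0.35 at very low counts. Ccnf, a cyclin that serves as a ubiquitin ligase subunit, was higher with the block (0.52 ± 0.14, adjusted p = 0.0101, 0.392 without it). The proliferation markers, all 14 above 0 with CPA, are given above, and their part was not tested.

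Anxa11, a calcium-dependent phospholipid-binding protein that tethers RNA granules to lysosomes, was low throughout (1.75 to 15.4 CPM). At 36 h both CPA libraries were above their untreated partners, at 8.505 and 9.496 CPM with CPA against 2.145 and 4.265 CPM untreated in NIP (1.61 ± 0.45 with the block, adjusted p = 0.0323, 0.437 without it). In NIL they were at 7.296 and 15.41 CPM with CPA against 2.425 and 7.199 CPM untreated (1.32 ± 0.43 with the block, adjusted p = 0.0431, 0.393 without it). Leaving out both high-Rn45s libraries, the block fit gave adjusted p of 0.155 in NIP and 0.224 in NIL. At 12 h in NIP the order was the other way, with 4.846 and 5.495 CPM with CPA and 6.932 and 8.594 CPM untreated. Averaged over lines and times Anxa11 was called higher with the block (0.58 ± 0.21, adjusted p = 0.0427, 0.327 without it).

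Seen by line and time, few members passed alone. In NIL at 12 h 0 of 31 were called, against 2.21% of all genes, and 3 with the block (9.68%, against 7.94%): Taf15 higher, Hnrnpa1 and Hnrnpa2b1 lower. At an unadjusted p under 0.05 there were 4, and DESeq2 called 1. In NIL at 36 h 0 were called, against 0.980% of all genes, and 7 with the block (22.6%, against 18.2%): Anxa11, Chmp2b, Grn and Sqstm1 higher, Hnrnpa2b1, Matr3 and Vapb lower. The block fit without both high-Rn45s libraries called 2 (0 without the block), against 2.65% of all genes, Grn higher and Hnrnpa1 lower (-1.12 ± 0.25, adjusted p = 0.0334). In the fit with all libraries 6 had an unadjusted p under 0.05, and DESeq2 called 1.

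In NIP at 12 h 3 were called (9.68%, against 4.71% of all genes), Sqstm1 and Glt8d1 higher and Dctn1 lower. With the block there were 9 (29.0%, against 14.1%), adding 3110043O21Rik and Taf15 higher and Hnrnpa1, Hnrnpa2b1, Tardbp and Unc13a lower. Without any 1 of the 4 libraries of that comparison the count was 0, with adjusted p up to 0.114 for Sqstm1, 0.14 for Dctn1 and 0.154 for Glt8d1. In NIP at 36 h 0 were called, against 2.33% of all genes, and 3 with the block (9.68%, against 10.3%): Anxa11 and Chchd10 higher, Dctn1 lower. The block fit without both called 0 (also 0 without the block), against 4.35% of all genes, with 9 members at an unadjusted p under 0.05. In the fit with all libraries and no block 3 had an unadjusted p under 0.05, and DESeq2 called 1.

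**Figure D3:**
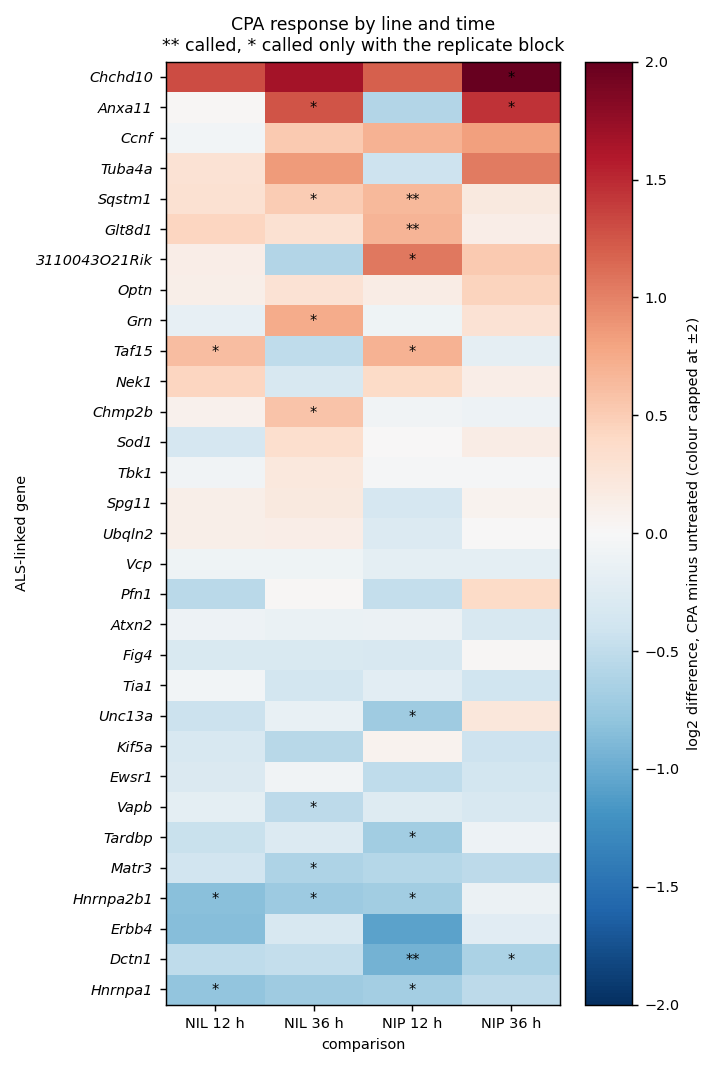
Log2 difference, CPA minus untreated, of the 31 ALS-linked genes (rows) in each line and time (columns), with the colour capped at ±2 and marks for genes called with and without the replicate block. The row of Dctn1 is lower in all 4 columns and that of Chchd10 higher, while 3110043O21Rik is at 1.05 in NIP at 12 h and -0.58 in NIL at 36 h.

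The averaged calls rest on the libraries to different degrees. The fits with 1 library left out had no replicate block, so 1 group then held a library of 1 replicate set only. In the block fit with all libraries, all 35 member values called over the comparisons stayed called. The share of all genes called is not given for the left-out fits. Their counts therefore do not show whether members lost calls more than other genes did. Sqstm1, Dctn1 and Glt8d1 stayed called without any 1 of the 16 libraries, with adjusted p of at most 0.00363, 0.00214 and 0.00766, and also without both high-Rn45s libraries. The other 6 lost the call in some cases: Hnrnpa2b1 without 6 of the 16 (adjusted p up to 0.0645), Hnrnpa1 without 9 (0.0944), Chchd10 (0.0842) and Ewsr1 (0.0889) without 10, and Optn (0.0947) and Vapb (0.134) without 11. The count of called members was 3 without NIL 12 h replicate 1, NIL 36 h CPA replicate 2, NIP 12 h replicate 1 or NIP 36 h replicate 1. It was 4 without NIL 12 h CPA replicate 2 or NIL 36 h replicate 1, and 5 without either library of NIP 12 h CPA or without NIP 36 h CPA replicate 2. Without both high-Rn45s libraries it was 3, and the other 6 kept their sign (Chchd10 1.39 ± 0.58, Hnrnpa1 -0.65 ± 0.23, Hnrnpa2b1 -0.49 ± 0.19, Vapb -0.28 ± 0.12, Ewsr1 -0.25 ± 0.11, Optn 0.24 ± 0.09). Of the 17 called with the block, those no longer called once both were left out were Optn (adjusted p = 0.0672), Ewsr1 (0.0743), Fig4 (0.0719), 3110043O21Rik (0.119) and Anxa11 (0.121).

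No member passed a test of a difference in CPA response. Between lines at 12 h 0 of 31 were called, against 0% of all genes (0 members and 0% with the block, 0 members at an unadjusted p under 0.05). Between lines at 36 h 0 were called, against 0% (0 members and 0.128% of all genes with the block), and 1 member, Chmp2b, had an unadjusted p under 0.05. Between 36 h and 12 h in NIL 0 were called, against 0.00676% (0 members and 0.108% with the block), with Sod1 at an unadjusted p under 0.05. Between 36 h and 12 h in NIP 0 were called, against 0.0135% (0 members and 1.09% with the block), with Glt8d1, Sqstm1 and Unc13a at an unadjusted p under 0.05. With both high-Rn45s libraries left out, the 3 tests that use 36 h libraries called 0 members with and without the block. DESeq2 called 1 member in the last of these and 0 in the others.

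Between the untreated lines, Dctn1, Kif5a, Tuba4a, Nek1, Unc13a, Sqstm1, Chmp2b and Sod1 were higher in NIP, and Ccnf and Erbb4 lower. Averaged over 0 h, 12 h and 36 h, 10 of 31 were called (32.3%), 8 higher and 2 lower in NIP, against 35.5% of all genes (18.3% higher, 17.2% lower). With the block 14 were called (45.2%, against 50.3%), adding Anxa11 and Vapb higher and Hnrnpa2b1 and Taf15 lower. The share of members called is near that of all genes. Without both high-Rn45s libraries 8 were called, and 12 with the block, against 45.9% of all genes. Proliferation markers were lower in NIP, 14 of 14 called, with sums of 45.8 to 201 CPM in NIP against 238 to 748 CPM in NIL, as were 8 of 9 stem cell markers. Mesenchyme markers were lower in NIP too, 5 of 6 tested called (median log2 difference -2.69), with sums of 1.7 to 3.31 CPM in NIP against 8.54 to 43.7 CPM in NIL. Of 10 endoderm and endothelium markers 5 were called lower, and 10 with the block, with sums of 521 to 2754 CPM in NIP against 2279 to 14832 CPM in NIL. Motor neuron markers summed to 6985 to 10110 CPM in NIP against 5134 to 8739 CPM in NIL. The part of these lists in the member differences was not tested.

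**Figure D4:**
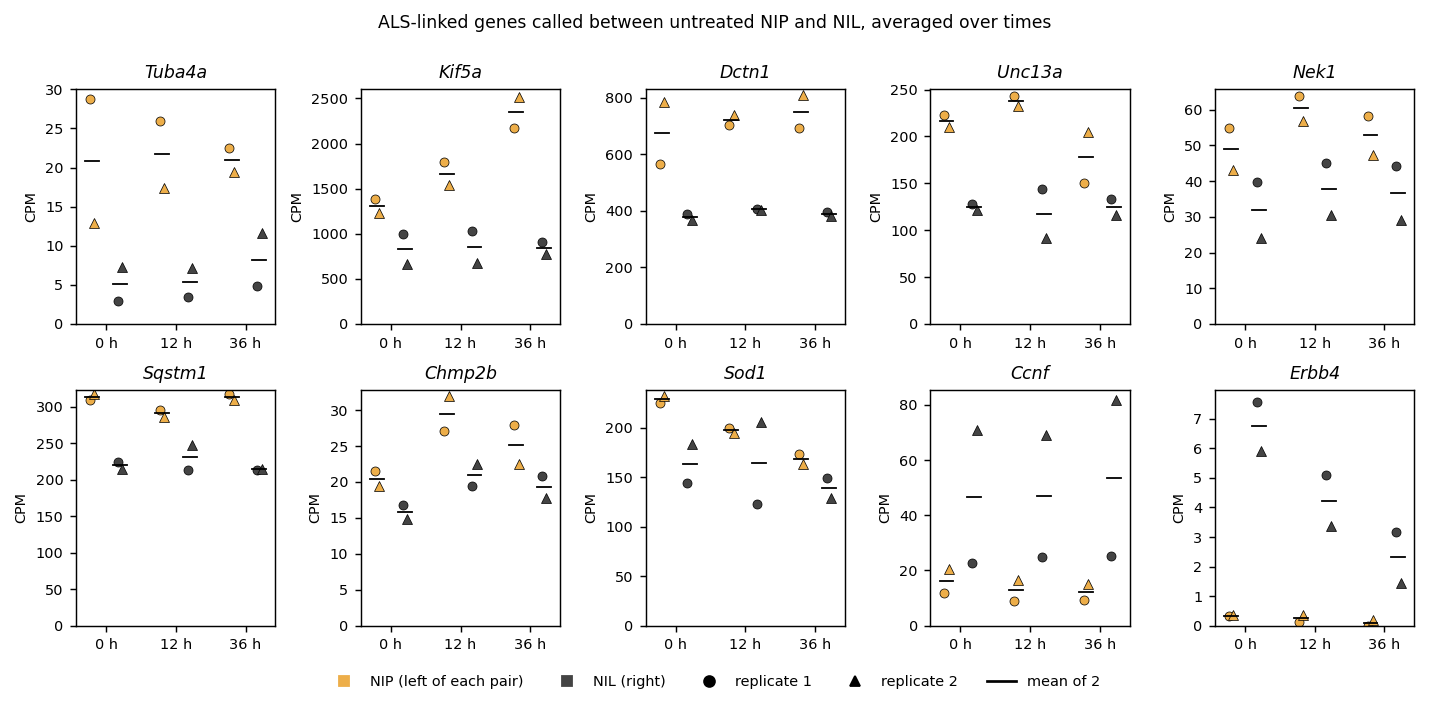
CPM in each untreated library for the 10 ALS-linked genes called between the lines averaged over times, with NIP left of NIL at 0 h, 12 h and 36 h. Points are libraries, shapes mark the replicate number and bars are means of 2. Dctn1 and Kif5a lie higher in NIP at each time, and Erbb4 and Ccnf lower.

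Kif5a, the neuronal kinesin heavy chain that carries neurofilaments and mitochondria along axons, had 1383 and 1232 CPM in NIP at 0 h, 1790 and 1539 CPM at 12 h and 2176 and 2517 CPM at 36 h. In NIL it had 994.6 and 668.3 CPM at 0 h, 1029 and 674.8 CPM at 12 h and 909.5 and 777 CPM at 36 h. All 6 NIP libraries were above all 6 NIL libraries. The averaged difference was 1.03 ± 0.19 (2.04-fold, adjusted p = 0.00105), and at 36 h alone 1.48 ± 0.34 (adjusted p = 0.0119). At 36 h the call was lost without NIL replicate 1, NIL replicate 2 or NIP replicate 2 (adjusted p up to 0.145).

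Dctn1 had 565 to 810 CPM in untreated NIP (median 721) and 369 to 407 CPM in NIL (median 393), with no overlap. It was called at each time: 0.83 ± 0.18 at 0 h (adjusted p = 0.00805), 0.83 ± 0.18 at 12 h (0.00833) and 0.95 ± 0.18 at 36 h (0.00401). The call at each time was lost in some of the fits with 1 library left out. In those fits the log2 difference was 0.554 to 1.015 at 0 h, 0.795 to 0.873 at 12 h and 0.821 to 1.075 at 36 h. The line comparisons share the untreated 12 h and 36 h libraries with the CPA comparisons above. In CPA-treated NIP at 12 h Dctn1 stood near its level in untreated NIL (346.9 and 401.7 CPM, against 407.4 and 402 CPM), values set side by side with no test. Of 21 other dynein, dynactin and kinesin-1 genes 6 were higher in NIP and 0 lower (28.6% called, against 35.5% of all genes), among them Bicd2, a dynein adaptor (0.73 ± 0.11), Dctn2 (0.54 ± 0.10), Dync1h1, the dynein heavy chain (0.48 ± 0.13), and Actr1b (0.31 ± 0.07). With the block 10 were higher and 0 lower, where 50.3% of all genes were called in both directions together.

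Tuba4a had 12.9 to 28.8 CPM in NIP and 2.93 to 11.6 CPM in NIL, without overlap, a 3.59-fold averaged difference (1.84 ± 0.34, adjusted p = 0.000937). Stk16, its antisense neighbour, did not follow it (28.9 to 35.4 CPM in NIP, 27.7 to 33.5 CPM in NIL, 0.08 ± 0.08). Nek1 had 43.1 to 64 CPM in NIP and 24.1 to 45.2 CPM in NIL, higher in 6 of 6 pairs (0.60 ± 0.19, adjusted p = 0.0279). The Nek1 call was lost without NIL 0 h, 12 h or 36 h replicate 2 or NIP 0 h, 12 h or 36 h replicate 1 (adjusted p up to 0.12), and without both high-Rn45s libraries (adjusted p = 0.0795). Pfn1 was not called (0.16 ± 0.20).

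Unc13a, needed for synaptic vesicle release, had 150 to 243 CPM in NIP (median 216) and 91.3 to 144 CPM in NIL (median 125), again without overlap (0.77 ± 0.14, 1.71-fold, adjusted p = 0.000733). Erbb4, a receptor for neuregulins, ran the other way. It had 6 and 4 counts in NIP at 0 h, 4 and 8 at 12 h and 0 and 4 at 36 h, against 238 and 70, 150 and 29, and 88 and 15 counts in NIL. NIL levels ran from 1.46 to 7.59 CPM. The log2 difference was -4.20 ± 0.36 averaged over times (adjusted p = 1.26e-06), and Erbb4 was called at each time and without any 1 library. Its relative Erbb3 was lower in NIP as well (-1.69 ± 0.49, adjusted p = 0.0166).

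Among the quality control members, Sqstm1 had 285 to 317 CPM in NIP and 213 to 248 CPM in NIL, without overlap (0.46 ± 0.08, 1.38-fold, adjusted p = 0.000349). Chmp2b had 19.4 to 31.9 CPM in NIP and 14.8 to 22.5 CPM in NIL, higher in 6 of 6 pairs (0.42 ± 0.10, adjusted p = 0.00612), and of 12 other ESCRT-III and VPS4 genes Vps4b (0.74 ± 0.16) and Chmp1a (0.39 ± 0.09) were higher and Chmp4c (-2.18 ± 0.63) lower (25% called, against 35.5% of all genes). Sod1 had 163 to 232 CPM in NIP and 123 to 206 CPM in NIL (0.34 ± 0.12, adjusted p = 0.0421). The Sod1 call was lost without 10 of the 12 libraries (adjusted p up to 0.123), the 2 exceptions being replicate 2 of NIL at 0 h and at 12 h, and without both high-Rn45s libraries (adjusted p = 0.127). Vcp was higher in NIP in 6 of 6 pairs but not called (0.14 ± 0.15, adjusted p = 0.506), and of its 20 cofactors 4 were higher, Svip, an inhibitor of ER-associated degradation (0.85 ± 0.12), Ufd1l (0.53 ± 0.13), Nploc4 (0.37 ± 0.09) and Faf2 (0.23 ± 0.07), and 1 lower (25% called). Of 14 autophagy receptors, ATG8 proteins and TBK1 adaptors 2 were higher in NIP, Map1lc3b (0.46 ± 0.10) and Tollip (0.25 ± 0.08), and Calcoco1 was lower (-0.25 ± 0.09), which is 21.4% called. Of 14 endolysosomal and C9orf72 partners 4 were higher, among them the progranulin receptor Sort1 (0.75 ± 0.14), Psap (0.70 ± 0.14) and Wdr41 (0.43 ± 0.12), and Ctsl was lower (-0.65 ± 0.20), which is 35.7% called.

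Ccnf, cyclin F, was the other member lower in NIP. It had 12 and 20.6 CPM in NIP at 0 h, 8.9 and 16.7 CPM at 12 h and 9.41 and 15.1 CPM at 36 h, against 22.7 and 70.8, 24.9 and 69.2, and 25.4 and 81.6 CPM in NIL. All NIP libraries were below all NIL ones, and in both lines replicate 2 was above replicate 1. The averaged difference was -1.83 ± 0.45 (adjusted p = 0.00686; -1.71 ± 0.17 with the block). The summed proliferation markers were likewise lower in NIP and higher in replicate set 2. The share of its line difference that goes with cycling cells was not tested.

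**Figure D5:**
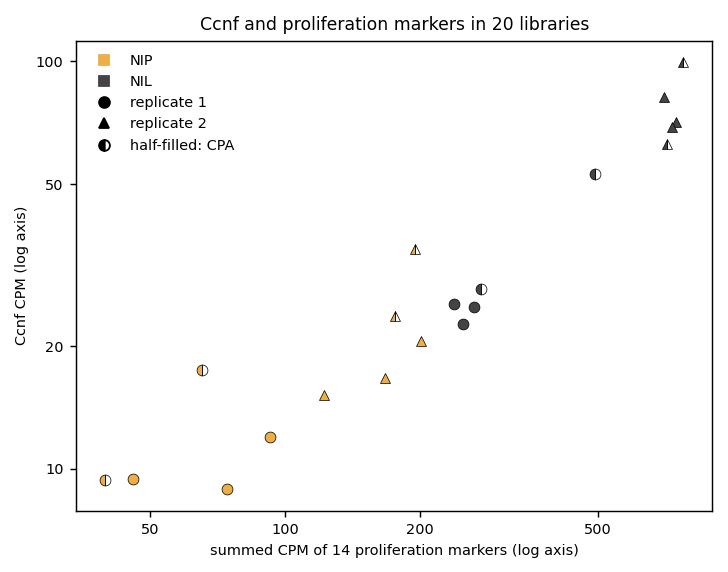
Ccnf in CPM against the summed CPM of 14 proliferation markers in the 20 libraries, on log axes. Colours mark NIP and NIL, shapes the replicate number and half-filled points CPA. Untreated NIP libraries lie at 45.8 to 201 CPM of proliferation markers and untreated NIL libraries at 238 to 748 CPM.

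RNA-binding members showed little difference between lines without the block. Hnrnpa2b1 was lower in NIP in 6 of 6 pairs and called with the block (-0.39 ± 0.13, adjusted p = 0.0163, 0.124 without it), as was Taf15 (-0.39 ± 0.11, adjusted p = 0.00882, 0.175 without it). Tardbp (-0.14 ± 0.17), Hnrnpa1 (-0.10 ± 0.23), Matr3 (0.06 ± 0.25), Tia1 (0.00 ± 0.20) and Atxn2 (0.11 ± 0.10) were not called, and Ewsr1 was lower in 6 of 6 pairs without being called (-0.22 ± 0.11, adjusted p = 0.123). Of 21 stress granule and related RNA-binding genes only Usp10 was called without the block (-0.21 ± 0.07), or 4.76%, against 35.5% of all genes. Of these 21, 3 were higher and 12 lower in replicate set 2. Their count with the block is not given, so no steadiness between lines is read from the low share. Vapb was called higher in NIP with the block alone (0.34 ± 0.10, adjusted p = 0.00871, 0.0502 without it), and Anxa11 likewise (0.64 ± 0.25, adjusted p = 0.0453, 0.386 without it, 0.0913 with it but without both high-Rn45s libraries).

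At 0 h 5 of 31 were called (16.1%, against 12.5% of all genes; 8 with the block, 25.8% against 26.3%): Dctn1, Sqstm1, Tuba4a and Unc13a higher in NIP and Erbb4 lower. At 12 h 4 were called (12.9%, against 12.0%; 8 with the block, 25.8% against 27.9%), Dctn1, Tuba4a and Unc13a higher and Erbb4 lower. At 36 h 4 were called (12.9%, against 11.6%; 7 with the block, 22.6% against 28.8%), Dctn1, Kif5a and Sqstm1 higher and Erbb4 lower, and 3 without both high-Rn45s libraries (5 with the block, against 20.9%). The count at 0 h was 2 without any 1 of its 4 libraries. At 12 h it was 2 without replicate 1 of NIP or of NIL and 1 without replicate 2 of either, and at 36 h it was 3 without NIP replicate 1, 2 without NIL replicate 1 and 1 without replicate 2 of either line. Erbb4 was the member called in every such case. The share of all genes called in these left-out fits is not given, so the lower counts are not read as a trait of the members.

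Time alone moved few members. Between 36 h and 0 h in untreated NIL 0 of 31 were called, against 0.0270% of all genes (0 members and 0.940% with the block), with 1 member, Erbb4, at an unadjusted p under 0.05. In untreated NIP 0 were called, against 1.29% of all genes, with 3 at an unadjusted p under 0.05. With the block 3 members were called lower at 36 h in NIP (9.68%, against 9.09%). Pfn1 had 401.2 and 380.9 CPM at 0 h, 246.1 and 267.8 CPM at 12 h and 199.5 and 206.8 CPM at 36 h (-0.95 ± 0.25 with the block for 36 h against 0 h, adjusted p = 0.028, 0.212 without it). Optn had 38.85 and 43.14, 39.52 and 41.25, and 29.31 and 27.89 CPM at the same times (-0.52 ± 0.15, adjusted p = 0.0422, 0.123 without it). Anxa11 had 8.519 and 10.2, 6.932 and 8.594, and 2.145 and 4.265 CPM (-1.65 ± 0.45, adjusted p = 0.0331, 0.378 without it). In each of the 3 both libraries at 36 h were below both at 0 h. 1 of the 36 h libraries is the NIP library with a high Rn45s share. Without both high-Rn45s libraries the block fit called none of the 3 (adjusted p = 0.0917 for Pfn1, 0.161 for Optn and 0.161 for Anxa11). It called 1 other member, against 2.91% of all genes, Kif5a higher at 36 h (1.07 ± 0.25, adjusted p = 0.0315).

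Genes with the profile most like that of the CPA-called members were picked by the correlation of log2 CPM over the 10 group means, given as a description. Nearest to Sqstm1 were Vmp1 (r = 0.976), Rhobtb1 (0.975) and Gpr63 (0.969). Nearest to Chchd10 were Creb3 (0.966), Angptl6 (0.961) and Cdyl (0.959), and nearest to Glt8d1 were Hspa13 (0.978), Fancm (0.968) and Cdkn1b (0.965). Nearest to Dctn1 were Cnr1 (0.983), Mblac2 (0.976) and Ncan (0.975), and nearest to Vapb were Ap2b1 (0.993), Pik3cd (0.989) and Sh3bgrl (0.989). Nearest to Hnrnpa1 were Ccnjl (0.977) and Gap43 (0.976), to Hnrnpa2b1 Pcolce2 (0.98) and Dnajc11 (0.974), to Ewsr1 Glud1 (0.968) and Rbmx (0.965), and to Optn Wdr12 (0.943) and Eftud1 (0.937). Among the members themselves, Vapb and Dctn1 (0.917) and Hnrnpa1 and Hnrnpa2b1 (0.915) had the closest profiles.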

How the data were processed

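RNA was measured in 20 ribosomal RNA-depleted libraries. The authors deposited raw read counts per gene symbol, 24421 symbols and 5 summary lines that were left out. Per the submitters' processing notes, the build was GRCm38 (mm10) and the tools were HTSeq 0.6.1p1, Bowtie2 2.3.2, TopHat2 2.1.1 and Picard; strand setting and annotation release are not given in the sources used here. Reads mapping to several places were 18.2% to 52.6% of reads, and reads assigned to no counted feature were 7.77% to 18.7%.

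Counts were tested with edgeR 4.0.16 in R 4.3.3: filterByExpr by group (14792 genes), TMM scaling, a robust quasi-likelihood fit with 10 group means (10 residual degrees of freedom), 15 contrasts, and Benjamini-Hochberg adjustment over all genes with a threshold of 0.05. CPM uses the TMM-scaled library sizes, and ± after a log2 difference is its standard error. The fit without the block was tried on simulated counts with known changes in the contrast of CPA in NIL at 12 h. The simulated counts held no difference between replicate sets, and the block fits were not tried on them. The replicate numbers in the titles pair libraries: deviations from the group means correlated in all 45 pairs of groups (r 0.243 to 0.763), so the fit with the number as a block stands beside a result where it changes the call. The coefficient of variation was 27.5% without it and 15.7% with it. Replicates of every group differed by more than sampling noise.

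The alternatives were the block, DESeq2 1.42.0, its size factors in edgeR, no filter, Rn45s left out, only the contrast's libraries, libraries left out and, chosen after seeing the data, the block without both high-Rn45s libraries. All alternatives not named as block fits, those with libraries left out among them, were fitted without the block. The members, lists and tests were chosen with earlier results of these data known. Members called in a comparison are given by library and, from each partner list, up to 4 called genes with the smallest p are named, as are the nearest genes by profile. Counts for partner lists are from the fit without the block, and only the dynein, dynactin and kinesin-1 list has counts with it too. Exon lengths and overlaps come from GENCODE (GRCm38).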

Additional observations from a re-analysis of the deposited data

Results flagged for a closer look

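For 2 members the CPA response in NIP pointed one way at 12 h and the other at 36 h in both libraries, without overlap between CPA and untreated libraries at either time. Pfn1 held 202.1 and 166.2 CPM with CPA against 246.1 and 267.8 CPM untreated at 12 h, and 245.9 and 286.1 CPM with CPA against 199.5 and 206.8 CPM untreated at 36 h. The test of the difference between the responses gave 0.87 ± 0.48 on the log2 scale (adjusted p = 0.983). Anxa11 held 4.846 and 5.495 CPM with CPA against 6.932 and 8.594 CPM untreated at 12 h, and 8.505 and 9.496 CPM with CPA against 2.145 and 4.265 CPM untreated at 36 h. That test gave 2.03 ± 1.03 (adjusted p = 0.928). Neither difference passed, and 0.0135% of all genes did. The same pattern of opposite, non-overlapping responses in NIP was seen in 651 of the 14792 genes tested (4.4%), against 2 of 31 members, so nothing particular to the members is read from it. The untreated 36 h library with 199.5 CPM of Pfn1 and 2.145 CPM of Anxa11 is the one with a high Rn45s share.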

How the results depend on the processing

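With the replicate block the count of called members with CPA was 3 and 7 in NIL at 12 h and 36 h, 9 and 3 in NIP, and 17 averaged, and between lines 8, 8 and 7 at 0 h, 12 h and 36 h and 3 for 36 h against 0 h in NIP. The block changed no other count by over 1.5 times. DESeq2 called 1 member where the count was 0 in NIL at 12 h, NIL at 36 h, NIP at 36 h and the comparison of CPA responses at 36 h and 12 h in NIP. With only the contrast's libraries the count was 6 for CPA in NIP at 12 h, 1, 1 and 2 between lines at 0 h, 12 h and 36 h, and 2 for 36 h against 0 h in NIP. Without a filter it was 5 for CPA averaged and 2 between lines at 0 h, and without both high-Rn45s libraries 3 for CPA averaged. With 1 library left out, counts were 0 for CPA in NIP at 12 h, 3 to 11 for CPA averaged, 2 between lines at 0 h, 1 to 2 at 12 h and 1 to 3 at 36 h. With the replicate block and without both high-Rn45s libraries, an alternative chosen after seeing the data, the count was 2 for CPA in NIL at 36 h and 1 for 36 h against 0 h in NIP. The causes of these moves were not tested. For the fits with libraries left out and no block, the share of all genes called is not given beside these counts. No called difference of a member changed sign under any alternative run: of called values, 212 stayed called and 116 lost the call with a library left out, and 215 stayed and 41 lost it under the other alternatives. Scaling by DESeq2 size factors lost 2 calls and leaving out Rn45s lost 3. Depth limits Erbb4 most, with 0 to 8 counts per NIP library.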
